A study of Xenopus laevis with 5 samples.

Results

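Tektins are the filament-forming proteins that lie inside the doublet microtubules of motile cilia and flagella. The array held 4 probe sets whose annotated symbol, without the homeolog suffix, is one of tekt1 to tekt5: tekt1.L, tekt2.L, tekt2.S and tekt4.S. They were taken by name, from 15491 probe sets other than controls and 7531 named gene copies. The suffixes L and S mark the long and the short subgenome of the allotetraploid frog Xenopus laevis, whose paired copies are called homeologs. The RefSeq gene table of this frog lists 7 tektin genes, and the other 3, tekt1.S, tekt3.L and tekt3.S, had no probe set under their name and were not analysed here.

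The samples were explants of embryonic skin, 5 in all with 1 array each. All embryos received synthetic RNA for ICD at the 2-cell stage. In 3 samples this was the only RNA (ICD), and in 2 samples RNA for FoxJ1 was added (ICD+FoxJ1). Prospective ectoderm was cut out at stage 9 to 10, grown on a fibronectin surface and harvested for RNA at stage 22. ICD is the name commonly given to the intracellular domain of Notch, which keeps skin progenitors from the multiciliated fate, a reading that goes beyond the labels. Both groups carry it, no sample without it was analysed here, and the level of FoxJ1 itself could not be read, since no probe set bears its name. Whether the replicates stem from different clutches or cultures is not stated, so the p-values reflect the spread of these samples alone, and that may be technical.

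A motile cilium is built on a ring of doublet microtubules, each a complete A tubule joined to an incomplete B tubule. Tektins form long coiled-coil filaments along the inner wall of the A tubule, where they join a set of other microtubule inner proteins that hold the doublet together while dynein motors bend it. FoxJ1 is the forkhead transcription factor known for switching on genes of motile cilia in vertebrates. The comparison asks how far the tektin genes, among other cilium genes, respond when FoxJ1 is added to ICD.

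All 4 tektins rose with FoxJ1, tekt1.L, tekt4.S and tekt2.S by 4.06, 4.16 and 4.83 on the log2 scale and tekt2.L at least 17.0-fold, and on each of them both arrays with FoxJ1 lay above all 3 ICD arrays. Among the 11618 probe sets tested, 4.48% rose and 2.99% fell, and 21.2% had both arrays with FoxJ1 above all ICD arrays. The median log2 difference was 4.31 over the tektins and -0.03 over all probe sets tested. No ICD array showed tekt2.L above background, so its own difference depends on values that were not measured above background, and with this gene at its bound the tektins' median was 4.12. In order of the log2 difference, tekt2.S stood at place 3, tekt4.S at place 18 and tekt1.L at place 24 of the 11618, and tekt2.L has no settled place. The places of tekt2.S and tekt1.L rest in part on ICD replicate 1, where both were below background. All values are MAS5 signals in arbitrary units, and differences are means of log2(signal + 16), ICD+FoxJ1 minus ICD. A probe set passed the test with an adjusted p under 0.05 in limma, adjusted over all probe sets tested.

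**Figure D1:**
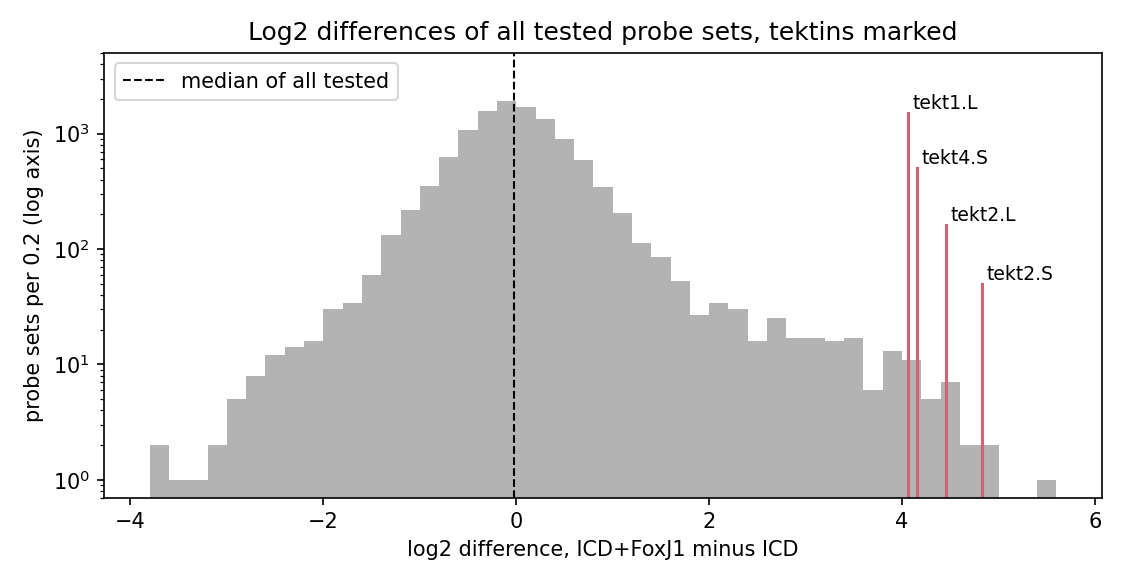
Histogram of the log2 difference, ICD+FoxJ1 minus ICD, of the 11618 probe sets tested, with the number of probe sets on a log axis. The dashed line is their median, -0.03, and the red lines, whose height has no meaning, mark the tektins, which lie between 4.06 and 4.83 in the right tail. Tekt2.L is drawn at its fitted value, although it was at background on all ICD arrays.

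The background level of an array was the brightest of 20 control probe sets that match no frog RNA, and it lay between 16.9 and 28.4. Of the 15491 probe sets, between 65.3% and 77.3% exceeded this level. With so few arrays the precision is limited. Median signals lay between 62.1 and 73.5. The bacterial poly-A control RNAs, added before labelling, had a median signal between 318 and 368 on 3 arrays (ICD replicates 1 and 2, and the first with FoxJ1) and of 2.95 and 1.90 on ICD replicate 3 and the second with FoxJ1. This division of the arrays crosses the groups, and tektin values within each side of it are given below. Signals of a probe set cannot be compared with those of another, so levels are compared between samples only.

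Tekt1, a core tektin of the A tubule filament, was read through its L copy. Its signal was 22.9, 52.3 and 68.1 with ICD and 1046.2 and 952.1 with FoxJ1. The lowest array with FoxJ1 was thus 13.98 times the highest ICD array, and the ICD arrays lay at or little above background, replicate 1 below its level of 28.4 and the other arrays at 2.62 and 2.63 times theirs. Mean signal went from 47.8 ± 22.9 (SD, n = 3) to 999 ± 66.5 (SD, n = 2). The log2 difference was 4.06 (SE 0.35, 95% interval 3.26 to 4.86, limma adjusted p = 0.00131).

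Tekt2, known in mouse for its part in sperm flagella, was the only tektin with a probe set for both homeologs. The signal of tekt2.L was 9, 14 and 25.5 with ICD and 692.3 and 656.7 with FoxJ1. All 3 ICD arrays were at or below the background of their array, whereas the arrays with FoxJ1 exceeded theirs 41.0 and 26.0 times. With the ICD arrays raised to their background level, the gene was at least 17.0-fold higher with FoxJ1. Measured means were 16.2 ± 8.46 (SD, n = 3) and 675 ± 25.2 (SD, n = 2), and the fitted difference passed the test (limma adjusted p = 0.00131). The gene entered that test through its arrays with FoxJ1, since the filter on dim probe sets averages over both groups.

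Tekt2.S gave 14.7, 56.2 and 71.9 with ICD and 1594.6 and 1672.2 with FoxJ1. ICD replicate 1 was below background, the other ICD arrays stood at 2.81 and 2.78 times background, and the arrays with FoxJ1 did not approach them. Its rise on the log2 scale was 4.83 (SE 0.43, 95% interval 3.83 to 5.83, limma adjusted p = 0.00131). Its interval overlapped those of tekt1.L and tekt4.S. The genes were read on the same arrays, so this overlap does not compare their changes, and such a difference was not tested. The groups averaged 47.6 ± 29.6 (SD, n = 3) and 1633 ± 54.9 (SD, n = 2).

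Tekt4, known in mouse for its role in sperm motility, was read through its S copy and was the only tektin above background on every array. Its signal was 43.1, 165.6 and 262.8 with ICD and 2294.4 and 2838.8 with FoxJ1. The ICD arrays exceeded their background 1.52, 8.28 and 10.1 times, and the groups lay 8.73-fold apart between their nearest arrays. Mean signal went from 157 ± 110 (SD, n = 3) to 2567 ± 385 (SD, n = 2). The log2 difference was 4.16 (SE 0.58, 95% interval 2.81 to 5.50, limma adjusted p = 0.00621). It no longer passed when either array with FoxJ1 was left out: the difference was 4.31 (limma adjusted p = 0.0623) without ICD+FoxJ1 replicate 1 and 4.003 (limma adjusted p = 0.0728) without ICD+FoxJ1 replicate 2. The other 3 tektins passed in both cases.

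**Figure D2:**
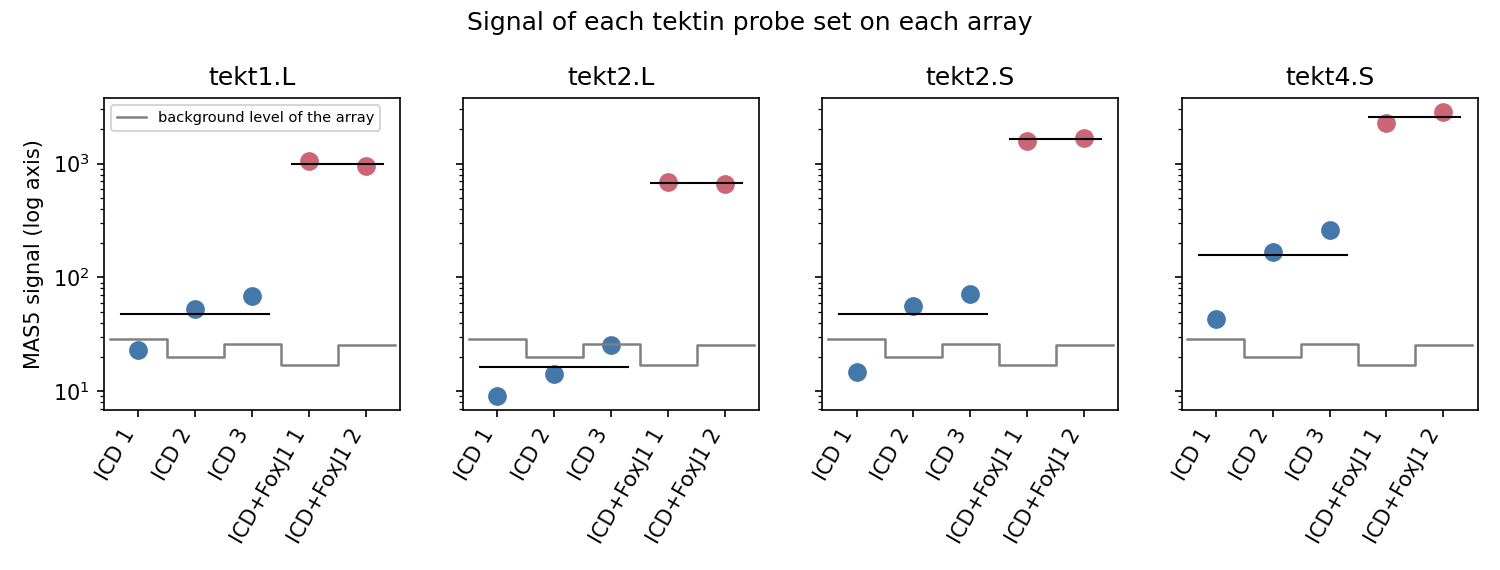
MAS5 signal of each tektin probe set on a log axis, with a point for each array (blue ICD, red ICD+FoxJ1), the group mean as a black line and the background level of each array as a grey step. Both arrays with FoxJ1 lie above all ICD arrays on every panel, and tekt2.L is at or under the grey step on all 3 ICD arrays.

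The homeologs of tekt2 were compared by how much each changed. The log2 value of tekt2.S minus that of tekt2.L was 0.30, 1.27 and 1.08 with ICD and 1.19 and 1.33 with FoxJ1, so the groups overlapped. This value averaged 0.88 ± 0.52 (SD, n = 3) in the ICD group and 1.26 ± 0.10 (SD, n = 2) in the other. The change of tekt2.S exceeded that of tekt2.L by 0.37 on the log2 scale, with p = 0.5 in an exact two-sided permutation test over 10 splits of the arrays, which cannot go below 0.1. With so few arrays no difference between the copies could have passed, and the test does not show that they respond alike. The value is also taken against tekt2.L at background on all ICD arrays. It was 0.06 with 4 in place of 16 added before the log, and 0.08 without ICD replicate 1. With 64 added it was 0.76, and the exact permutation p was then 0.1, the smallest the test can give. Cross-hybridisation between the copies was not tested.

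Among the ICD arrays, tekt4.S, the only tektin above background on all of them, was lowest on ICD replicate 1 and highest on ICD replicate 3, an order seen in 21.1% of all probe sets tested. The other tektins had the same order of signals, but tekt2.L was at background on every ICD array and tekt1.L and tekt2.S on ICD replicate 1. Relative to background, tekt2.S was not higher on ICD replicate 3 than on ICD replicate 2. Tekt4.S differed 6.10-fold between the highest and the lowest of 3 ICD arrays, against 1.24-fold between the 2 arrays with FoxJ1. ICD replicate 1 had the highest background level of all arrays (28.4), the lowest median signal (62.1) and the fewest probe sets above background (65.3%). On that array tekt4.S was only 1.52 times background. Relative to ICD replicate 1, it was higher by 1.62 on ICD replicate 2 and by 2.24 on ICD replicate 3 on the log2 scale. For the other tektins, the ratio between the arrays with FoxJ1 was 1.10 for tekt1.L and 1.05 for both tekt2.L and tekt2.S. Among the ICD arrays it was 2.97 for tekt1.L, 2.83 for tekt2.L and 4.89 for tekt2.S. These ICD ratios include signals at background and span 3 arrays rather than 2. How often the ICD arrays spread more widely over all probe sets was not counted. Without ICD replicate 1, the log2 difference was 3.51 for tekt4.S, 3.74 for tekt1.L and 4.37 for tekt2.S, and these passed the test. The fitted value of tekt2.L was then 4.29. It rests on ICD signals at background and on a filter that tekt2.L met through its arrays with FoxJ1.

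On the arrays with poly-A signal, where ICD+FoxJ1 replicate 1 meets ICD replicates 1 and 2, the log2 difference was 4.37 for tekt1.L, 4.69 for tekt2.L, 5.10 for tekt2.S and 4.48 for tekt4.S. On the arrays without it, where ICD+FoxJ1 replicate 2 meets ICD replicate 3, it was 3.52, 4.02, 4.26 and 3.36 in the same order. The rise was thus present on both sides of the split. The values of tekt2.L depend on ICD signals that were not above background on either side.

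Levels of other cell type genes were read on the same arrays. In bulk explants, more multiciliated cells and more tektin RNA per cell cannot be told apart. The list of multiciliated cell genes had 6 gene copies with a probe set, and their summed signal was 215, 686 and 1021 with ICD and 2407 and 2596 with FoxJ1. Of the 5 tested, the ciliary genes dnai1.L, an intermediate chain of outer dynein arms (3.49, SE 0.44), and cfap298.L, known for dynein arm assembly (2.65, SE 0.44), rose, and 3 did not pass. Most of the sum with FoxJ1 came from dnai1.L (1230.4 and 1307.3) and cfap298.L (771.6 and 881.4), so the sum does not speak for the whole list. Ccno.L, the cyclin O gene of centriole amplification, had signals of 31.7, 319.5 and 439 with ICD and 176.7 and 193.4 with FoxJ1, so it was lowest on ICD replicate 1, as tekt4.S was, but its groups overlapped. Of the transcription factor genes of this fate, foxn4.S had 22.2, 42.5 and 58.2 with ICD and 35.4 and 37.7 with FoxJ1, and rfx2.S had 52.8, 90 and 116.9 against 192 and 173.9. Myb.S was below background on every array. The part of cell number in the tektin values was not tested.

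All 14 epidermal gene copies with a probe set were above background on every array. Some genes of other tissues were above it too. On the 3 ICD arrays these were 6, 8 and 8 of 11 neural copies, and 1, 3 and 1 of 7 muscle and mesoderm copies. Of 6 endoderm copies, 1 exceeded background on each of these arrays. The summed signal of 14 epidermal gene copies, keratins, epcam, tfap2a, cdh1 and dlx3 among them, ran from 47106 to 59628 with ICD and was 41869 and 53111 with FoxJ1. Such a sum is led by its brightest probe sets. Of the 14, 3 fell: krt19.L, krt19.S and epcam.L, with log2 differences of -1.96, -1.02 and -0.71. The goblet cell genes, among them the intelectin gene itln1.L, summed to between 13099 and 17070 with ICD and to 15430 and 17081 with FoxJ1, and 0 of 4 passed the test. Of 6 ionocyte genes tested, 2 rose and 2 fell, of 4 basal cell genes 1 fell, of 6 neural genes 2 fell, of 2 muscle and mesoderm genes 1 rose and 1 fell, and the 1 endoderm gene tested did not pass. Over all probe sets 4.48% rose and 2.99% fell, and lists this short are given as counts with no test. The counts moved with the settings: over the 16 fits, between 1 and 4 epidermal genes, and between 0 and 2 each of the ionocyte and neural genes, fell, between 0 and 2 ionocyte and multiciliated cell genes rose. The calls in the basal cell and muscle lists were lost in at least 1 fit, and in at least 1 fit 1 goblet cell gene rose and 1 multiciliated cell gene fell.

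The tektins were set beside other genes whose proteins lie inside or along the doublet. A list of 56 symbols found 11 gene copies on the array, all of which were tested. Of these, 10 rose and 0 fell, with a median log2 difference of 3.83. Over all probe sets tested, 4.48% rose and 2.99% fell, with a median of -0.03. The number that rose was lower when either array with FoxJ1 was left out, both in this list and over all probe sets.

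Cfap161.L, an inner protein gene of the A tubule, had 38.5, 75.8 and 106.3 with ICD and 1631.8 and 1934.5 with FoxJ1. It rose by 4.40 (SE 0.35, limma adjusted p = 0.00131). Fam166b.S, a doublet inner protein gene also called cimip2b in other vertebrates, rose by 4.85 (SE 0.53). Its signals went from 16, 85.4 and 107.6 to 2031.3 and 2197, and on ICD replicate 1 it was below background, as tekt2.S was.

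In the B tubule and at its junction with the A tubule, cfap20.L, of the inner junction, had 125.3, 224 and 267.7 with ICD and 2874.3 and 3162 with FoxJ1. It rose by 3.83 (SE 0.31), and its dimmer probe sets rose by 4.01 and 3.10. Cfap52, an inner protein of the B tubule, rose in both copies, by 3.997 (SE 0.44) in cfap52.L and by 4.28 (SE 0.52) in cfap52.S. Cfap45, its neighbour on the B tubule wall, also rose in both copies. Cfap45.S rose by 4.40 (SE 0.57), and by 3.85 in its dimmer probe set, and cfap45.L by 2.50 (SE 0.26). Cfap45.L had 42.1, 50 and 72.4 with ICD against 365.7 and 393.7 with FoxJ1. The difference between the copies of cfap45 was not tested. Spaca9.L, an inner protein of the B tubule in human cilia, rose by 2.36 (SE 0.28). On ICD replicate 1, cfap45.S, cfap52.S and spaca9.L were below background, at 0.56, 0.61 and 0.47 times its level. Without that array, cfap45.S rose by 3.75.

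Meig1.S, known in mouse spermatids, rose by 2.85, and saxo2.L, of a family of stabilizers of axonemal microtubules, by 2.70, and both were named after their values were seen. Fam166c.S was the only listed gene that did not pass. It had 18.1, 21.4 and 16.2 with ICD and 74.7 and 18.7 with FoxJ1, and the difference on the log2 scale was 0.70 (SE 0.37, limma adjusted p = 0.296). It was at background on 2 ICD arrays and on ICD+FoxJ1 replicate 2, so the single high value came from ICD+FoxJ1 replicate 1.

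**Figure D3:**
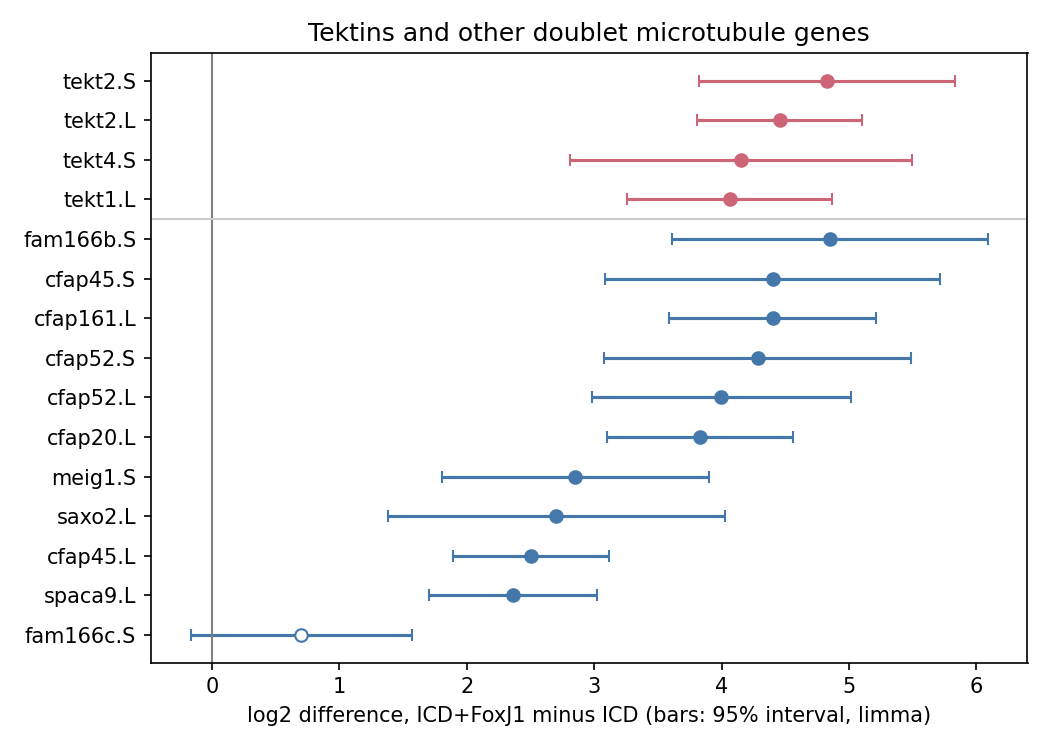
Log2 difference, ICD+FoxJ1 minus ICD, of the tektins (red) and of 11 other doublet microtubule genes (blue), each at its brightest probe set, with bars for the 95% interval from limma. Filled points passed the test, and fam166c.S, the open point at 0.70, did not. Tekt2.L is drawn at its fitted value and interval, although it was at background on all ICD arrays.

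Finally, the named probe sets with the pattern closest to the tektins were sought. Likeness was the root mean square difference between log2 values over the 5 arrays after each probe set's own mean was taken away, so a small value means a like pattern. Among each other, the tektins differed by between 0.26 and 0.56, and the homeologs tekt2.L and tekt2.S by 0.38. These values include ICD signals at background, so the pairs are not put in order. Of 7406 named probe sets, those nearest to the mean of the tektins were cfap161.L (0.11), rsph3.L, a radial spoke gene (0.18), gmpr2.S, a GMP reductase gene (0.20), cfap52.S (0.20) and a dimmer probe set of cfap20.L (0.22). The median over all 7406 was 2.22. The mean of the tektins includes the same ICD signals at background, so the order of these neighbours is not firm either. Rsph3.L, gmpr2.S and cfap52.S were themselves below background on ICD replicate 1.

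For single tektins, the nearest were ppp1r36.L, which encodes a regulatory subunit of protein phosphatase 1 (0.14), and cfap20.L (0.15) for tekt1.L. For tekt2.L they were tepp.L (0.12) and cfap161.L (0.20), and for tekt2.S fam166b.S (0.16) and ak7.S, an adenylate kinase of cilia (0.17). For tekt4.S they were cfap52.S (0.15) and spag6.L, of the central apparatus (0.22). Each of these genes rose with FoxJ1, which choosing them by their likeness to the tektins makes all but certain. Ppp1r36.L had 23.3, 36.1 and 54.4 with ICD and 838.8 and 779.2 with FoxJ1, close to the course of tekt1.L. Like tekt1.L, it was below background on ICD replicate 1, and so was ak7.S. Tepp.L had 18.3, 19.7 and 28.2 against 780.3 and 759.4, and like tekt2.L it was near or below background on the ICD arrays. Spag6.L had 17.7, 93.9 and 101.4 against 1211.1 and 1199, and was below background on ICD replicate 1, where 42.1% of all probe sets tested were lowest among the ICD arrays.

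**Figure D4:**
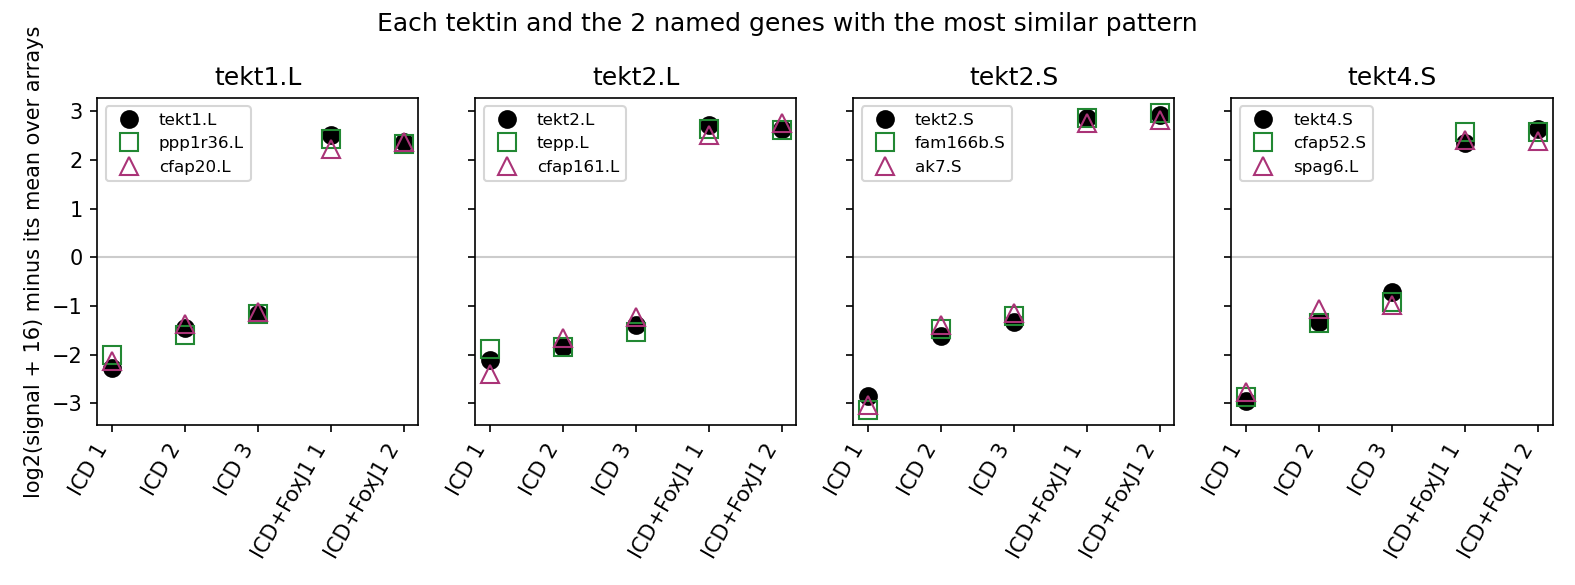
Log2(signal + 16) on each array minus its mean over the 5 arrays, for each tektin (black) and the 2 named probe sets with the most similar pattern (green squares and purple triangles). On every panel the points of the ICD arrays lie below 0, lowest on ICD replicate 1, and those of the arrays with FoxJ1 above it.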

How the data were processed

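RNA of each sample was turned into biotinylated cRNA for 1 single-colour Affymetrix array, per the labels' protocols. The deposited table holds a linear signal intensity for each probe set, which the authors computed with MAS5 according to the submitters' processing notes. Its version and settings, not given in the sources used here, are unknown. The mean of each array, with 2% trimmed at both ends, was 200.02 or 200.03.

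The 120 control probe sets and the 25% with the lowest mean log2(signal + 16) over all 5 arrays were left out. The added 16 makes a difference understate the change of dim probe sets. All 4 tektins passed this filter, which counts both groups. Tekt2.L passed through its arrays with FoxJ1, with a mean log2(signal + 16) of 4.98 with ICD and 9.43 with FoxJ1. Limma 3.58.1 in R 4.3.3 (lmFit, eBayes with a trend) was fitted over all 11618 remaining probe sets, two-sided, with Benjamini-Hochberg adjustment. The code was tested on simulated data. Figures used matplotlib 3.10.9.

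Symbols came from the platform annotation, 1 each for 9304 probe sets, and the identifiers of all 4 tektins were found in RefSeq (Xenopus_laevis_v10.1). List members were matched by symbol or synonym, with the brightest probe set for each gene copy. Brightness was the mean signal over all 5 arrays, those with FoxJ1 included, so the choice can favour probe sets that are high with FoxJ1.

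Members, lists and tests were chosen with earlier results of these data known. Named genes were all tektins, the 8 doublet genes with the smallest p and those not past the threshold, and the nearest patterns. Alternatives were other added constants, filters and scalings, no variance trend, single arrays left out, the replicate number or the poly-A split as a block, and the arrays with poly-A signal alone.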

Additional observations from a re-analysis of the deposited data

How the results depend on the processing

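Every tektin kept its direction under the 15 alternatives run, scalings included. The log2 difference ranged from 3.27 to 4.39 for tekt1.L, from 3.21 to 5.15 for tekt2.L, from 3.96 to 5.22 for tekt2.S and from 3.51 to 4.63 for tekt4.S. The lowest values of tekt1.L, tekt2.L and tekt2.S came with 64 added before the log, which by construction shrinks the change of dim probe sets. The only lost calls were those of tekt4.S without either array with FoxJ1, where the lone array is assumed to vary like the ICD arrays. With single arrays left out, its difference ran from 3.51 to 4.63, between 6 and 10 other doublet genes rose, and over all probe sets between 116 and 740 rose and between 32 and 647 fell. The change of tekt2.S minus that of tekt2.L ranged from 0.06 to 0.76 and stayed positive.

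Of all probe sets, 243 rose and 73 fell with the replicate number as a block, 166 rose and 23 fell on the arrays with poly-A signal alone, and 212 fell with the poly-A split as a block. Without a block, the 5 arrays gave 521 and 347, and these fits hold fewer arrays or fewer degrees of freedom. The numbers share no known origin. Across probe sets, deviations from the group means correlated at -0.06 between the arrays numbered 1 and at -0.32 between those numbered 2. They correlated at 0.32 between ICD replicate 2 and ICD+FoxJ1 replicate 1, and at 0.25 between ICD replicate 3 and ICD+FoxJ1 replicate 2. The deviations of the 2 arrays with FoxJ1 mirror each other, so each value returns with the opposite sign for the other array. Such values cannot settle which arrays belong together. The replicate block changed no tektin call. The calls of the other doublet genes, the nearest patterns, dnai1.L and cfap298.L were also followed singly. For 7 of these, cfap52.S, cfap45.S, meig1.S, saxo2.L, spag6.L, dnai1.L and cfap298.L, the call was lost in at least 1 fit. Each such fit had fewer arrays or the poly-A split as a block. Spaca9.L was not tested with the dimmest 50% left out. The epidermal genes were not followed singly. As few as 1 of them fell in a fit, so calls among krt19.L, krt19.S and epcam.L were lost too. Signal over background limits tekt2.L, at background on all ICD arrays, and on ICD replicate 1 also tekt1.L and tekt2.S.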
